A study of Mus musculus with 6 samples.

Results

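A set of 10 genes of sulfated-glycan metabolism was examined in RNA from 3 EIC and 3 16IC cell lines of the mouse mammary gland. They were selected by name from the 23449 genes of the deposited table: Chst1, Chst2, Chst11, Chst12, Chst15, Ndst1, Hs2st1, Hs6st1, Sulf1 and Sulf2. All 10 had a row. These genes were put forward with their counts in this comparison already known, so their levels and differences are given as a description without a test. The lines are female, of the FVB/N strain, with the genotypes EIC/WT and 16IC/WT. Every line grew in 10% serum with insulin, EGF, pituitary extract and 10 ug/mL of doxycycline. The labels do not explain the genotype names. As known of the study, EIC lines carry inducible wild-type ErbB2 (HER2), and 16IC lines carry the HER2 splice form without exon 16. The labels name neither the promoter that drives the transgenes nor the age or number of animals behind a line, and no line was kept without doxycycline. Nothing says that lines of a group came from separate animals, so any p-value measures only the spread between these 6 samples.

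Sulfated glycosaminoglycans are long sugar chains that are built on core proteins in the Golgi and then carried to the cell surface and the matrix. Heparan sulfate is built first as a plain chain. N-deacetylase/N-sulfotransferases such as Ndst1 then exchange acetyl groups for sulfate, and 2-O and 6-O sulfotransferases such as Hs2st1 and Hs6st1 add further sulfate. Sulf1 and Sulf2 work outside the cell and remove 6-O sulfate again. These sulfate patterns set how growth factors such as FGFs, Wnts and heparin-binding EGF bind at the surface. Chondroitin sulfate is sulfated by enzymes such as Chst11, Chst12 and Chst15, and keratan sulfate and related N-acetyllactosamine chains by Chst1 and Chst2.

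Library totals ranged from 15621563 to 17468498 counts. Mitochondrial genes took 0.93 to 1.5% of the counts in EIC and 2.0 to 3.4% in 16IC, and the part of this in the results below was not tested. The keratin genes Krt8 and Krt18 were expressed in every line, with at least 580 and 563 CPM (the count divided by the TMM-scaled library size, in units of 1000000 counts). The epithelial adhesion gene Epcam had at most 3.79 CPM in EIC, against 1160, 1345 and 51.1 CPM in 16IC 1 to 3. The summed level of 11 luminal markers was 2686 to 3389 CPM in EIC and 9451, 9457 and 1855 CPM in 16IC 1 to 3. Of these markers Epcam, Elf5, Cldn4 and Esrp1 were higher in every 16IC line than in any EIC line. Krt19 went the other way, with 7.70, 198 and 10.1 CPM in EIC 1 to 3 and 0, 0 and 0.649 CPM in 16IC 1 to 3. For the rest, Krt8, Krt18, Cdh1, Gata3, Foxa1 and Cldn3, the groups overlapped. The 10 mesenchymal markers summed to 4792, 9333 and 5772 CPM in EIC 1 to 3. In 16IC 1 to 3 they summed to 281, 384 and 4021 CPM. Of these markers Vim, Zeb2, Twist1, Sparc and Itga5 were lower in every 16IC line than in any EIC line. For Fn1, Zeb1, Snai1, Snai2 and Cdh2 the groups overlapped. Cdh2 had the higher mean in 16IC (138 CPM, against 112 CPM in EIC). The 6 fibroblast markers with a row, of 9 listed, summed to 92.4 to 285 CPM in EIC and 7.65 to 28 CPM in 16IC. Most of the EIC sum came from Fbln1 and Pdgfra, and Pdgfra had only 1.98 CPM in EIC 2. Col1a1 went the other way, with at most 1.99 CPM in EIC and at least 3.13 CPM in 16IC. Of 5 endothelial markers 4 had a row, summing to at most 3.82 CPM in any line, and of 7 leukocyte markers 4 had a row, summing to 14.4 to 47.7 CPM in EIC and 7.83 to 19.1 CPM in 16IC. Nearly all of that sum came from Cd68, a lysosomal gene of macrophages (14.3 to 47.6 CPM in EIC and 7.40 to 19.0 CPM in 16IC), and the pan-leukocyte gene Ptprc had at most 0.306 CPM. In bulk RNA fewer cells of a type and less RNA per cell cannot be told apart.

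Chst1, Chst2 and Hs6st1 separated the groups, while Chst11, Chst12 and Sulf2 differed mainly between lines of the same group. Chst1 was present in every EIC line and nearly absent from every 16IC line. Chst2 and Hs6st1 were about 4-fold higher in 16IC (4.24 and 3.95 as ratios of group means). Ndst1 and Hs2st1 differed little between the groups (1.11 and 1.19 as ratios of group means, 16IC over EIC). Chst15 and Sulf1 were close to the detection limit in all lines.

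Chst1 encodes the sulfotransferase that puts sulfate on the 6-O position of galactose in keratan sulfate (ENSMUSG00000027221, chromosome 2, 92599707 to 92615250, plus strand, on GRCm38). Its level was 105, 124 and 114 CPM in EIC 1 to 3 and 0, 0.551 and 0.778 CPM in 16IC 1 to 3. Those 16IC levels rest on 0, 9 and 12 counts, against 1837, 2054 and 1838 in EIC, and a count of 0 in 16IC 1 allows up to 0.181 CPM, a limit that covers counting error only. No 16IC line came near any EIC line, and the EIC lines stood within a 1.18-fold range of each other. The group means were 114 ± 9.39 CPM and 0.443 ± 0.400 CPM (SD, n = 3), a log2 fold change of -8.00 (SE 0.92) for 16IC over EIC. The line 16IC 3 had a summed mesenchymal marker level of 4021 CPM, against 4792 CPM in EIC 1. Vim and Fn1 made up most of it in both lines (2099 and 1511 CPM in 16IC 3, 2684 and 1301 CPM in EIC 1). Sparc was lower in 16IC 3 (31.1 against 282 CPM) and Cdh2 higher (217 against 88.2 CPM). The Chst1 level of 16IC 3 was 0.778 CPM, the highest of the 16IC lines, against 105 CPM in EIC 1. Its relation to these markers was not tested. The RefSeq promoter window of Chst1 is shown because this gene had the largest difference of the 10 genes. It runs from 250 bases before to 50 bases after the RefSeq start, at chr2:92600867-92601166 on the plus strand of GRCm38.p6, and capitals mark CpG dinucleotides:
Chst1: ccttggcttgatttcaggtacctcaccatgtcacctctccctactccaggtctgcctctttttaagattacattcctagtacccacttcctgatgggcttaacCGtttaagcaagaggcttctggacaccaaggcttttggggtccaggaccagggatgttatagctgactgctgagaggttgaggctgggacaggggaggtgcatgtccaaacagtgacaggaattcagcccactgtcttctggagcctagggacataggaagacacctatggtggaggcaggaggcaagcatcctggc
That window holds 1 CpG, where the median over 32851 such windows is 7, and 5.43% of windows hold fewer. The RefSeq start lies 1410 bases downstream of the start of the deposited gene model, so the window need not be the promoter in use in these lines.

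Chst2 encodes a sulfotransferase for the 6-O position of N-acetylglucosamine, known from its part in making L-selectin ligands (ENSMUSG00000033350, chromosome 9, 95399292 to 95406722, minus strand). It went the other way from Chst1. Its level was 2.85, 14.6 and 8.64 CPM in EIC 1 to 3 and 35.4, 40.4 and 34.8 CPM in 16IC 1 to 3. Each 16IC line exceeded each EIC line, and the 16IC lines stood close together, within 1.16-fold, whereas EIC lines spread over 5.13-fold. The group means were 8.70 ± 5.88 CPM and 36.9 ± 3.11 CPM (SD, n = 3), with a log2 fold change of 2.08 (SE 0.57).

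Hs6st1 encodes a heparan sulfate 6-O-sulfotransferase (ENSMUSG00000045216, chromosome 1, 36068400 to 36106446, plus strand). Its level was 18, 15.8 and 11.8 CPM in EIC 1 to 3 and 61.4, 81.7 and 36.9 CPM in 16IC 1 to 3. The groups did not overlap, and 16IC 3 was the lowest 16IC line while still above the highest EIC line. Mean levels stood at 15.2 ± 3.12 CPM in EIC against 60.0 ± 22.4 CPM in 16IC (SD, n = 3), with a log2 fold change of 1.98 (SE 0.35). The summed luminal marker level of 16IC 3, 1855 CPM, lay below that of every EIC line, but single luminal markers went both ways. Krt8 and Krt18 of 16IC 3 (580 and 563 CPM) were below every EIC line. Its Epcam and Esrp1 levels (51.1 and 25.8 CPM) were above every EIC line. The part of these markers in the Hs6st1 level was not tested. The other 6-O-sulfotransferase genes on the list, Hs6st2 and Hs6st3, were not analysed here. The windows of the genes that were higher in 16IC are shown for comparison with that of Chst1, at chr9:95407221-95407520 on the minus strand for Chst2 and chr1:36068150-36068449 on the plus strand for Hs6st1, again 5′ to 3′ with CpG in capitals:
Chst2: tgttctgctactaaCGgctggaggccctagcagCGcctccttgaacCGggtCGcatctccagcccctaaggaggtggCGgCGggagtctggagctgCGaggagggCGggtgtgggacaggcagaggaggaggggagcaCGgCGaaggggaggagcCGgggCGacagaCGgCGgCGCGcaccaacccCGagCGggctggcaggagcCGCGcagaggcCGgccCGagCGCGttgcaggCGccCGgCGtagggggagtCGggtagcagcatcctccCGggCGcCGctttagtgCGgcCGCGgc
Hs6st1: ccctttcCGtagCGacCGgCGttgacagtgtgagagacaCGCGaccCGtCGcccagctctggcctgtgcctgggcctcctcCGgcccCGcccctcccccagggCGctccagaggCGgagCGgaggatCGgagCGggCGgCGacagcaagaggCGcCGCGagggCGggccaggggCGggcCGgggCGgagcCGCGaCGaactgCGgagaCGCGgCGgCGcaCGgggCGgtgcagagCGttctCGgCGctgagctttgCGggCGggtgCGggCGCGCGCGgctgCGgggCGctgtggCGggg
They hold 34 and 47 CpG, more than 92.3% and 98.6% of all windows hold. The Hs6st1 window begins its transcript at the same base as the deposited gene model, and the RefSeq start of Chst2 lies 548 bases upstream of it.

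**Figure D1:**
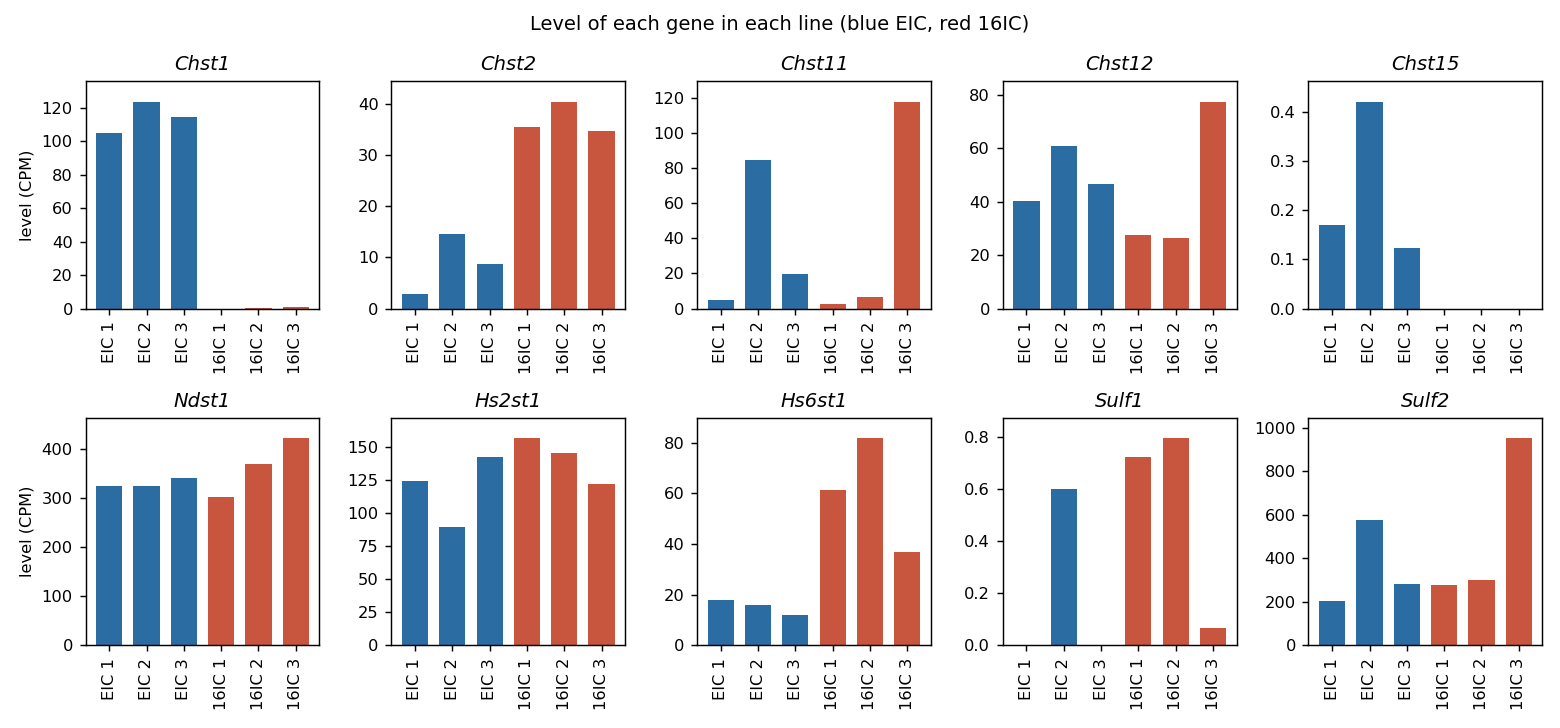
Level of each of the 10 genes in CPM (vertical axis, from 0, own scale per panel) in each of the 6 lines (horizontal axis), 1 bar per line, blue for EIC and red for 16IC. Chst1 stands at 105 to 124 CPM in EIC and at most 0.778 CPM in 16IC, Chst2 and Hs6st1 are higher in every 16IC line, and Chst11 and Sulf2 are highest in EIC 2 and 16IC 3.

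Among the heparan sulfate enzymes the N-sulfotransferase gene Ndst1 and the 2-O-sulfotransferase gene Hs2st1 hardly differed between groups. Ndst1, the enzyme that opens sulfation of the chain, had 324, 324 and 340 CPM in EIC 1 to 3 and 302, 370 and 421 CPM in 16IC 1 to 3. These ranges overlap, with a log2 fold change of 0.15 (SE 0.19). Hs2st1, which sulfates the uronic acid, had 124, 89.4 and 143 CPM in EIC 1 to 3 and 157, 145 and 122 CPM in 16IC 1 to 3. EIC 3 lay above 16IC 3, and the log2 fold change was 0.25 (SE 0.22). The 3 sulfotransferase genes were set against each other per length, as CPM per kilobase of the gene length in the table. Hs6st1 made up 4.52, 4.25 and 2.82% of their summed level per length in EIC 1 to 3, against 13.9, 15.8 and 7.32% in 16IC 1 to 3. Ndst1 held the largest share in every line, 74.2 to 79.5% in EIC and 62.2 to 76.3% in 16IC. Other heparan sulfate sulfotransferase genes were not part of this sum. Ndst2, for instance, had means of 7.16 CPM per kilobase in EIC and 4.19 in 16IC.

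Sulf2 encodes an endosulfatase that strips 6-O sulfate from heparan sulfate outside the cell (ENSMUSG00000006800, chromosome 2, 166073089 to 166155663, minus strand). Its level was 203, 576 and 284 CPM in EIC 1 to 3 and 276, 299 and 951 CPM in 16IC 1 to 3. EIC 2 and 16IC 3 were high, the other 4 lines lay between 203 and 299 CPM, and the groups overlapped. The log2 fold change was 0.52 (SE 0.62), and without 16IC 3 it was -0.31, so that 1 line set its direction. Sulf1, the gene of the related endosulfatase, had 0, 10 and 0 counts in EIC 1 to 3 against 12, 13 and 1 counts in 16IC 1 to 3, at most 0.795 CPM, and did not pass the filter on low counts. The ratio of Sulf2 to Hs6st1 per length sets an enzyme that removes 6-O sulfate against one that adds it. For EIC 1 to 3 this ratio was 10.7, 34.4 and 22.7, and for 16IC 1 to 3 it was 4.24, 3.46 and 24.3. It was lower than in any EIC line in 16IC 1 and 16IC 2, and 16IC 3 lay within the EIC range. Sulf2 overlaps Ncoa3 on the opposite strand in the annotation, and no label or header says whether counting used strand, so reads of the overlap cannot be told apart.

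**Figure D2:**
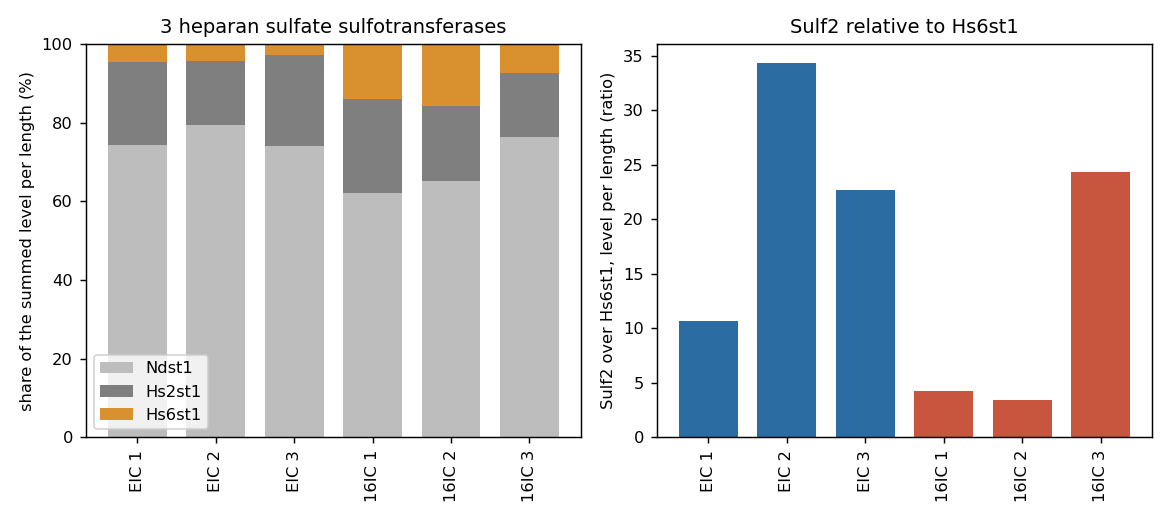
Left, share of Ndst1, Hs2st1 and Hs6st1 in their summed level per length (percent, stacked bars, 1 per line). Right, ratio of Sulf2 to Hs6st1 per length in each line (bars from 0, blue EIC, red 16IC). Hs6st1 takes 2.82 to 4.52% in EIC and 7.32 to 15.8% in 16IC, and the ratio is lowest in 16IC 1 and 16IC 2, at 4.24 and 3.46.

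The chondroitin 4-O-sulfotransferase genes Chst11 and Chst12 followed single lines and not the groups. Chst11 (ENSMUSG00000034612, chromosome 10, 82985498 to 83195900, plus strand) had 4.91, 84.6 and 19.5 CPM in EIC 1 to 3 and 2.83, 6.49 and 118 CPM in 16IC 1 to 3. It spanned 17.2-fold within EIC and 41.5-fold within 16IC, with EIC 2 and 16IC 3 far above the rest. Its means, 36.3 ± 42.4 CPM and 42.3 ± 65.2 CPM (SD, n = 3), were therefore nearly equal, with a log2 fold change of 0.22 (SE 1.54). Without 16IC 3 the log2 fold change became -2.96, and across the ways of leaving out 1 line it ran up to 1.79. Chst12 (ENSMUSG00000036599, chromosome 5, 140505550 to 140525724, plus strand) had 40.1, 60.9 and 46.7 CPM in EIC 1 to 3 and 27.3, 26.6 and 77.3 CPM in 16IC 1 to 3. Again EIC 2 and 16IC 3 were the highest line of their group, over a smaller range than for Chst11. Its log2 fold change was -0.17 (SE 0.47), and -0.87 without 16IC 3. Per length Chst12 exceeded Chst11 in every line, by 22.6-fold in 16IC 1 but by only 1.68-fold in EIC 2 and 1.54-fold in 16IC 3. The window of Chst11 is shown because this gene varied most between lines of a group among the genes that passed the filter and had no line at 0, at chr10:82985247-82985546 on the plus strand:
Chst11: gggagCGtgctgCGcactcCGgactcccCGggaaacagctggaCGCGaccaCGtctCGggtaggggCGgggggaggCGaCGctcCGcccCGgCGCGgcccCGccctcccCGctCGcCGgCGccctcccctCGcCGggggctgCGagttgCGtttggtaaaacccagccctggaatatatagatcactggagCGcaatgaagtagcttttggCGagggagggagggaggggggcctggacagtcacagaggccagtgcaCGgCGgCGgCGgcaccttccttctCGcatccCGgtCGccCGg
It holds 34 CpG, as many as that of Chst2. Chst15, whose enzyme adds a second sulfate to already 4-O-sulfated chondroitin, had 3, 7 and 2 counts in EIC 1 to 3 and 0 in every 16IC line. With an upper limit of 3 counts over the 16IC group, the 12 counts of EIC correspond to a level at least 3.85-fold lower in 16IC. That figure leaves out the counting error of the EIC counts and the spread between lines. Chst15 did not pass the filter on low counts. In the annotation it overlaps the protein-coding gene Fgfr2 on the same strand, and the part of this overlap in its counts was not tested.

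Chst1, Chst11, Chst12 and Sulf2 all had their highest EIC value in EIC 2 and their highest 16IC value in 16IC 3, although Chst1 was at most 0.778 CPM in 16IC. Of all tested genes 18% showed that pair of lines, so 4 of the 8 genes that passed the filter are listed here as a description. The summed mesenchymal marker level was also highest in EIC 2 among EIC lines and in 16IC 3 among 16IC lines, and its part in these values was not tested. The title of EIC 2 reads NT where other titles have a number, without an explanation.

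Per length, Sulf2 and Ndst1 led in both groups. In EIC the order of mean level was Sulf2 (60.4 ± 33.4 CPM per kilobase), Ndst1 (54.2 ± 1.49), Chst1 (42.6 ± 3.50), Chst12 (20.8 ± 4.49), Hs2st1 (14.5 ± 3.29), Chst11 (6.57 ± 7.68), Hs6st1 (2.74 ± 0.564) and Chst2 (1.19 ± 0.803). In 16IC it was Sulf2 (86.6 ± 65.3), Ndst1 (60.0 ± 9.86), Chst12 (18.5 ± 12.3), Hs2st1 (17.2 ± 2.13), Hs6st1 (10.8 ± 4.05), Chst11 (7.65 ± 11.8), Chst2 (5.03 ± 0.424) and Chst1 (0.165 ± 0.149), all SD with n = 3. Chst1 thus moved from the third place to below Chst2, while Sulf1 and Chst15 stayed under 0.1 CPM per kilobase throughout. Neighbours whose lines overlapped were Sulf2 and Ndst1 in both groups, Chst12 and Hs2st1 in both groups, Hs2st1 with Chst11 and Chst11 with Hs6st1 in EIC, and Hs6st1 with Chst11 and Chst11 with Chst2 in 16IC. The order was the same with the authors' FPKM.

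**Figure D3:**
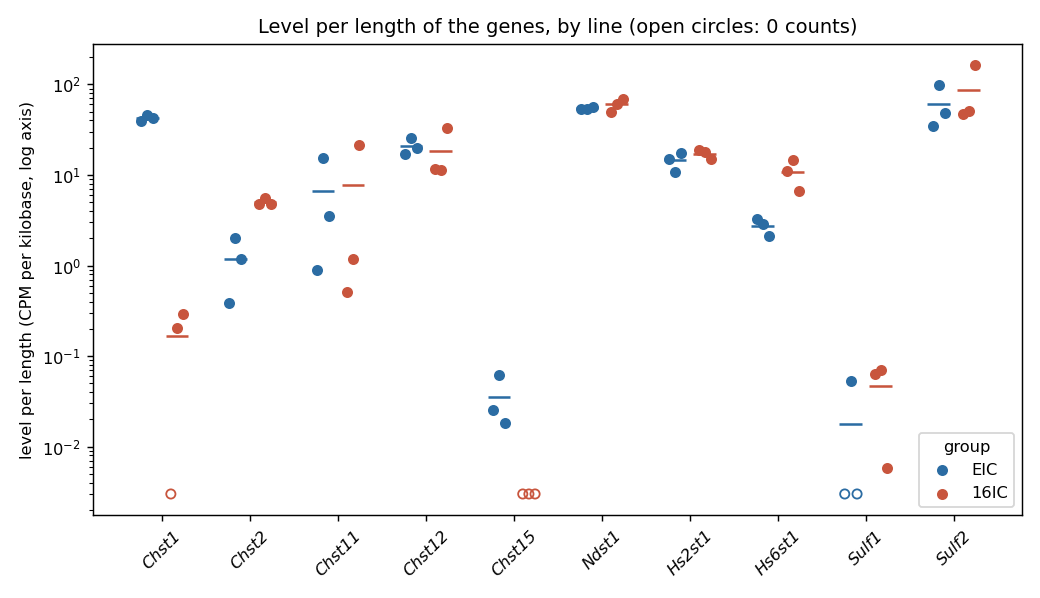
Level per length in CPM per kilobase (vertical log axis) for each gene (horizontal axis), 1 point per line, blue for EIC and red for 16IC, with a short line at each group mean and open circles at the foot of the axis for lines with 0 counts. Sulf2 and Ndst1 lead in both groups, and Chst1 lies at a mean of 42.6 in EIC against 0.165 in 16IC.

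In edgeR's quasi-likelihood fit over 13698 genes, 2.45% had a Benjamini-Hochberg adjusted p under 0.05, 1.25% higher and 1.20% lower in 16IC. Of the 8 genes that passed the filter, Chst1 was among those lower and Hs6st1 among those higher. Groups did not overlap for Chst1, Chst2 and Hs6st1, as for 31.4% of tested genes. As the 10 genes were put forward with this comparison known, nothing is read from these counts. Leaving out EIC 1, EIC 3 or 16IC 2 left 0 of the 10 genes below the threshold, and 0 genes of the whole table, where an unadjusted p under 0.05 was reached by 2627, 2341 and 2251 genes. Hs6st1 was also not called without EIC 2, without 16IC 1, with no filter on low counts or by limma-voom, settings under which Chst1 was called, and DESeq2 called Chst2 besides these 2 genes. The sign and rough size of the differences of Chst1, Chst2 and Hs6st1 held whichever line was left out, with log2 fold changes of -8.67 to -7.41, 1.66 to 2.67 and 1.69 to 2.23. In the authors' deposited table the log2 fold changes are -8.05 for Chst1, 2.05 for Chst2 and 1.96 for Hs6st1.

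**Figure D4:**
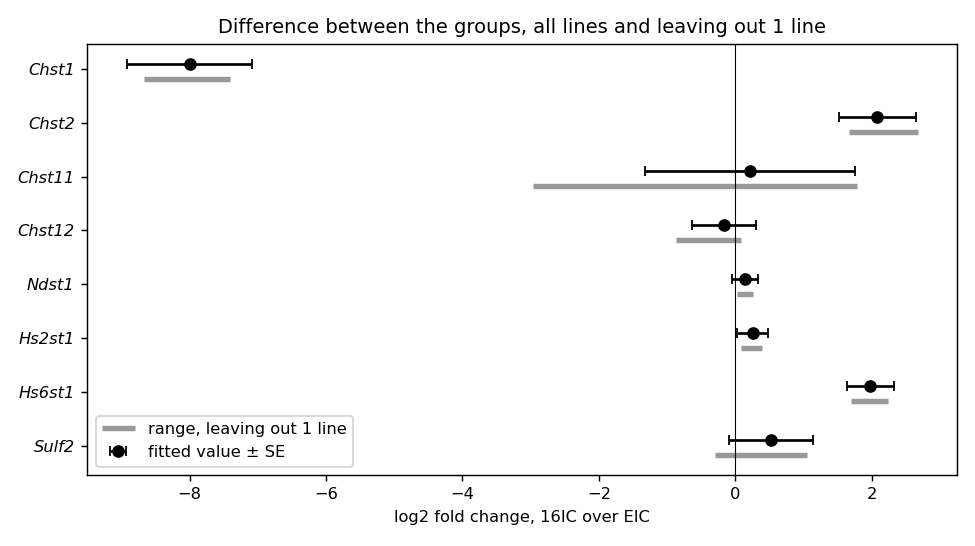
Fitted log2 fold change of 16IC over EIC (horizontal axis) with its SE (black points and bars) for the 8 genes that passed the filter, and the range of the value when 1 line is left out (grey bars). Chst1, Chst2 and Hs6st1 keep their side of 0, while Chst11, Chst12 and Sulf2 cross it.

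The other genes of glycosaminoglycan metabolism were taken from a list by role. Of 89 listed, 71 had a row and 56 passed the filter. Among those 56, edgeR called 0 higher and 2 lower in 16IC, where 2.45% of all tested genes were called, and 15 had an unadjusted p under 0.05 (22.7% of all tested genes). The median log2 fold change was -0.22, against 0.00 over all tested genes, with 22 positive and 34 negative. Groups lay apart with 16IC below for 15 genes and above for 5, where the shares of all tested genes were 14.2% and 17.2%.

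Both calls concern chondroitin sulfate. Vcan encodes versican, a large chondroitin sulfate proteoglycan of the matrix. It had 280, 247 and 614 CPM in EIC 1 to 3 and 19.9, 22.5 and 54.3 CPM in 16IC 1 to 3, so that the groups lay far apart. It fell by 3.56 on the log2 scale (SE 0.58, edgeR adjusted p = 0.0432). Chsy1 encodes a chondroitin synthase that extends the chain. Its level was 15.2, 38.4 and 18.8 CPM in EIC 1 to 3 and 5.12, 3.12 and 4.48 CPM in 16IC 1 to 3, and it fell by 2.51 (SE 0.45, edgeR adjusted p = 0.0493). Both calls were lost on leaving out any 1 line other than 16IC 3 (edgeR adjusted p = 0.0551 to 0.198). The call of Chsy1 was also lost with upper-quartile factors, no filter, the robust fit and limma-voom (adjusted p = 0.0508 to 0.0699). Versican is also a product of mesenchymal cells, and the mesenchymal marker sum was lower in every 16IC line, a relation that was not tested.

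**Figure D5:**
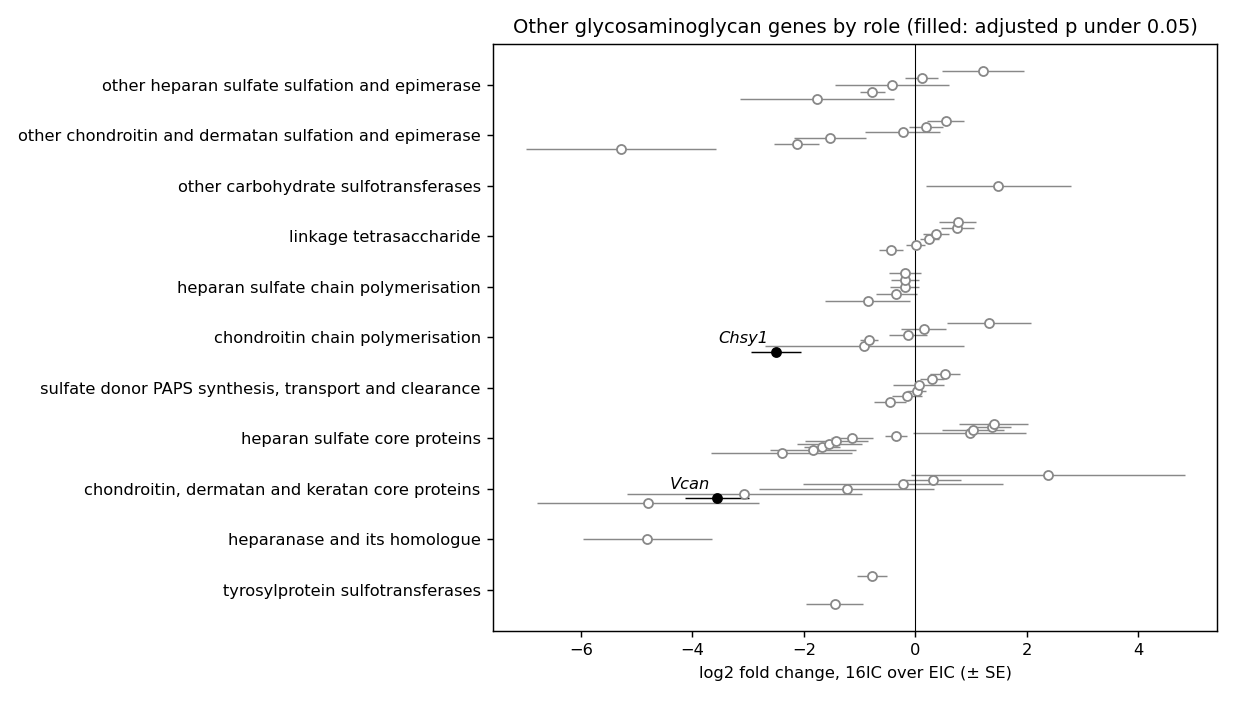
Fitted log2 fold change of 16IC over EIC with its SE (horizontal axis) for the 56 other glycosaminoglycan genes that passed the filter, grouped by role (vertical axis). Filled points are the 2 genes with an edgeR adjusted p under 0.05, Vcan and Chsy1, and open points are the rest.

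The other role groups held no edgeR call. Among the chondroitin and dermatan modifiers, the epimerase gene Dse had 46.9 ± 15.3 CPM in EIC against 10.7 ± 4.21 CPM in 16IC (SD, n = 3; edgeR adjusted p = 0.0565). The 4-O-sulfotransferase gene Chst13 had 6.27, 108 and 2.18 CPM in EIC 1 to 3 against 0.904, 0.245 and 1.82 CPM in 16IC 1 to 3, with EIC 2 again far above the rest (edgeR adjusted p = 0.139). Chst3, a chondroitin 6-O-sulfotransferase gene, had 4.39 and 1.51 CPM as means (adjusted p = 0.232). The chain-starting Csgalnact2 had 85.7 ± 7.01 and 47.9 ± 4.23 CPM (edgeR adjusted p = 0.0562), and its relative Csgalnact1 went the other way, with 9.84 and 24.6 CPM (adjusted p = 0.357). All 5 heparan sulfate polymerisation genes had log2 fold changes between -0.86 and -0.18, and the polymerase gene Ext1 had 140 ± 35.0 and 123 ± 24.2 CPM (edgeR adjusted p = 0.706). Their median of -0.19 was near 0.

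Among the other heparan sulfate modifiers, Ndst2, a second N-deacetylase/N-sulfotransferase gene, had 32.6 ± 4.73 CPM in EIC against 19.0 ± 3.01 CPM in 16IC with groups that did not overlap (edgeR adjusted p = 0.116). The 3-O-sulfotransferase gene Hs3st3b1 had 11.5 and 26.7 CPM as means (adjusted p = 0.381), and Ndst3 had 7.09 and 2.07 CPM (adjusted p = 0.501). Hpse encodes heparanase, which cuts heparan sulfate chains, and had 5.02, 16.4 and 7.65 CPM in EIC 1 to 3 against 0, 0.306 and 0.714 CPM in 16IC 1 to 3. These groups lay apart without passing the test (edgeR adjusted p = 0.0839). Of the core proteins that carry heparan sulfate, 11 passed the filter, with 4 positive and 7 negative log2 fold changes and a median of -1.13. The glypican gene Gpc1 had 422 ± 155 and 132 ± 21.5 CPM (edgeR adjusted p = 0.0580), and the syndecan gene Sdc2 had 205 ± 21.3 and 93.2 ± 49.3 CPM (adjusted p = 0.145). Agrn, which encodes the basement membrane proteoglycan agrin, was among the genes with a positive value, with 632 ± 264 and 1633 ± 211 CPM (edgeR adjusted p = 0.0931).

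In the linkage group, B4galt7 and Pxylp1 had 33.3 and 26 CPM in EIC and 56.0 and 43.9 CPM in 16IC (edgeR adjusted p = 0.202 and 0.239), and B3galt6 had 20.3 and 15 CPM (0.297). The genes that make, move or clear the sulfate donor PAPS had a median log2 fold change of 0.04, and the smallest p in the group belonged to Slc35b3, a PAPS transporter gene with 23.0 and 33.4 CPM (edgeR adjusted p = 0.297). The tyrosine sulfotransferase genes Tpst1 and Tpst2 had 16.1 and 158 CPM in EIC and 5.91 and 92.0 CPM in 16IC (edgeR adjusted p = 0.166 for both).

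Genes with the line pattern most like that of a member were sought by Pearson correlation of log2 CPM over the 6 lines, among 10307 tested genes with a mean of at least 5 CPM. Genes that separate the same lines correlate highly in so few lines, so these are descriptions. A correlation also does not compare the size of a difference. For Chst1 the nearest were Akap11, Mcfd2 and Cavin1 (r = 0.999, 0.998 and 0.996), and 208 genes exceeded 0.95. For Hs6st1 they were Pea15a, Atrn and Shank2 (0.995, 0.992 and 0.991). For Chst11 they were Dnpep, Slc38a10 and Rbl2 (0.996, 0.990 and 0.988), and for Sulf2 they were Cd14, Cdh2 and Crnde (0.997, 0.992 and 0.990). Cdh2, the gene of N-cadherin, had 88.2, 150 and 97.6 CPM in EIC 1 to 3 and 95.3, 102 and 217 CPM in 16IC 1 to 3, highest in the same lines as Sulf2. Akap11 had 86.5 to 90.1 CPM in EIC and 45.1 to 54.5 CPM in 16IC, a far smaller difference than that of Chst1. Cavin1 had 459 to 544 CPM in EIC and 2.05 to 15.2 CPM in 16IC. Dnpep had 60.1 to 95.2 CPM over all lines, a far smaller span than that of Chst11.

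Across the 8 genes whose RefSeq windows were examined, that of Chst1 had the fewest CpG, and the other windows held 12 to 47. The GC box letters GGGCGG, searched on both strands, occurred in 35.7% of all windows. They were found 7 times in the Hs6st1 window, 3 times in those of Chst11 and Chst12, and 2 times in that of Hs2st1 and each Chst15 window. The Chst2 window and 1 Sulf2 window held them once, and the Chst1 window and the other Sulf2 window did not hold them. The TATA element TATAAA (13.6% of all windows) and the E-box CAGGTG (20.2%), also searched on both strands, were each found in 1 Sulf2 window and in no other window of these genes. These matches describe the letters of the windows and say nothing of binding.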

How the data were processed

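RNA of the 6 lines was taken with a column kit and made into NEBNext Ultra II libraries, per the labels' protocols. Per the submitters' processing notes the builds were GRCm38 and mm10 and the tools edgeR, limma, HTSeq, STAR and Trimmomatic, and no role, setting or annotation release is named. The deposited file holds the authors' raw counts per gene and line, their normalised signal (each count over 1 factor per line, deposited by the authors) and FPKM made by the authors. It also holds the authors' log2 fold change, p-value and adjusted p-value.

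The counts were filtered with filterByExpr (minimum count 10), scaled with TMM and tested with edgeR 4.0.16 in R 4.3.3, with adjustment over all 13698 genes. The SE is the fitted log2 fold change divided by the square root of its F statistic. Alternatives were other scaling factors and filters, the robust fit, limma-voom (limma 3.58.1), DESeq2 1.42.0, other thresholds and leaving out each line. The fits were also tested on simulated data. The genes and lists were chosen with earlier results of these data known. All 10 genes were named, and from each role of the list the calls and at most 3 genes of smallest p could be named. Lines of a group differed beyond sampling noise, though not equally. In a comparison of the counts of each pair, chi-square per gene was smallest for 16IC 1 and 16IC 2, at 19.5. It was 269 for 16IC 1 and 261 for 16IC 2 when each was set against 16IC 3. Among EIC pairs it ran from 51.6 to 171. Replicate numbers follow the order of the samples and pair nothing. Promoter windows come from RefSeq (GRCm38.p6) and cover 8 of the 10 genes. Windows on chromosome 18, where Ndst1 lies, were left out, and none was matched for Sulf1. Coordinates of the genes given in the text equal those of the GENCODE annotation of that build.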

Additional observations from a re-analysis of the deposited data

How the results depend on the processing

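The number of called genes depended on single lines and on the tool. Of all tested genes edgeR called 335. Leaving out 1 line gave 0 to 1913, no filter on low counts 223, DESeq2 2098, and adjusted p thresholds of 0.1 and 0.01 gave 1184 and 0 (3110 at an unadjusted p under 0.05 in edgeR). Of the other glycosaminoglycan genes edgeR called 2. Leaving out 1 line gave 0 to 11, the highest without 16IC 3, while upper-quartile factors, no filter, the robust fit and limma-voom gave 1 each, DESeq2 gave 10, and thresholds of 0.1 and 0.01 gave 7 and 0 (15 at an unadjusted p under 0.05 in edgeR). The cause was not tested. Of the log2 fold changes named for the list, that of Ndst3 ran from -2.47 to 0.14 on leaving out 1 line and was above 0 without EIC 2. Among the 10 genes, Chst11 turned to -2.96 and Sulf2 to -0.31 without 16IC 3, and the sign of Chst12 was kept in 10 of 13 settings. Chst1, Chst2, Hs6st1, Ndst1 and Hs2st1 kept their sign in all 13. Chst15 and Sulf1 had at most 13 counts in any line, and the part of sequencing depth in this was not tested. No paired analysis was possible because the labels give the lines no replicate numbers.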
